A study of Arabidopsis thaliana with 10 samples.

Results

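The circadian clock of Arabidopsis thaliana was followed through 10 of its core genes in seedlings grown in darkness. These were CCA1 (AT2G46830), LHY (AT1G01060), PRR9 (AT2G46790), PRR7 (AT5G02810), PRR5 (AT5G24470), TOC1 (AT5G61380), ELF3 (AT2G25930), ELF4 (AT2G40080), LUX (AT3G46640) and GI (AT1G22770). They were picked by locus identifier from a list of 10, and all 10 were present among 33322 loci and among the 18680 loci with enough reads to be tested. Whole seedlings of the Columbia background had been exposed as seeds to white light for 3 h and to far-red light for 15 min, and were then held for 48 h in the dark at 21 °C, so the measurement is 1 level at an age of 2 days and not a rhythm. Messenger RNA was captured at its 3′ end and sequenced, and the values are read counts per locus, given here as CPM, the usual unit that divides the count of a locus by the normalised total of its library. The genotypes lacked 1, 3 or 4 of PIF1, PIF3, PIF4 and PIF5, the phytochrome-interacting basic helix-loop-helix transcription factors that accumulate in the dark and hold back light responses. The mutants were the single mutants pif1, pif3, pif4 and pif5, the triple mutants pif345, pif145, pif135 and pif134, each named for the factors it lacks, and the quadruple mutant pifq, and they were set against the wild type (WT). Each of the 10 genotypes had 3 biological replicates, lettered A, B and C. The labels give neither the mutant alleles nor the hour of harvest, and each line stands for its mutations as a whole-plant mutant.

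The plant clock is a set of transcription factors that repress or activate one another in turn through the day. CCA1 and LHY, a pair of closely related MYB factors, peak near dawn and repress the evening genes. The pseudo-response regulators PRR9, PRR7, PRR5 and TOC1 are expressed in that order from morning to evening and repress CCA1 and LHY. ELF3, ELF4 and LUX form the evening complex, a night-time repressor of PRR9, of PRR7 and of growth genes that include PIF4 and PIF5. GI is an evening protein that binds and stabilises the F-box photoreceptor ZTL and promotes flowering. The PIFs bind the G-box, CACGTG, and the related PBE-box, CACATG.

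The upstream sequence is shown for 6 of the genes that hold letters that clock factors or PIFs are known to bind. Each run is the 250 bases before the RefSeq gene start in build TAIR10.1, read 5′ to 3′ on the strand of the gene, with the motif in capitals. CCA1 lies on the plus strand with its upstream run at chr2:19245341-19245590, LHY on the minus strand at chr1:37872-38121, PRR7 on the minus strand at chr5:642031-642280 and LUX on the plus strand at chr3:17182792-17183041. PRR5 lies on the minus strand with its run at chr5:8358547-8358796, and TOC1 on the plus strand at chr5:24674713-24674962. In CCA1, LHY and PRR7 the capitals mark a G-box, in LUX a G-box and then an evening element, in PRR5 a CCA1-binding site and then an evening element, both on the reverse strand, and in TOC1 an evening element on the reverse strand.
CCA1: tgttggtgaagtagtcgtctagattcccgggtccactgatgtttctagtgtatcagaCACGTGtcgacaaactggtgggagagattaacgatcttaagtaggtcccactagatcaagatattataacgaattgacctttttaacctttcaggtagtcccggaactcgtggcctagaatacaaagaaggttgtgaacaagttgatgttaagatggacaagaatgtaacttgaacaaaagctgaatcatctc
LHY: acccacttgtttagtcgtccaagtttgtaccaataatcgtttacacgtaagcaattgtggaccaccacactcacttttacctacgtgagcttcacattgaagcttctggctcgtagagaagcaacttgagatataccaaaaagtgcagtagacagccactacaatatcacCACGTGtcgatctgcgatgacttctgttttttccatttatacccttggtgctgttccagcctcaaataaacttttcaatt
PRR7: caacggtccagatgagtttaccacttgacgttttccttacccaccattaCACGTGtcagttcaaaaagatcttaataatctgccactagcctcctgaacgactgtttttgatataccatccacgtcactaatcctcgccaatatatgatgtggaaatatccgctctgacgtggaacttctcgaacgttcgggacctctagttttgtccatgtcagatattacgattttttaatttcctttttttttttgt
LUX: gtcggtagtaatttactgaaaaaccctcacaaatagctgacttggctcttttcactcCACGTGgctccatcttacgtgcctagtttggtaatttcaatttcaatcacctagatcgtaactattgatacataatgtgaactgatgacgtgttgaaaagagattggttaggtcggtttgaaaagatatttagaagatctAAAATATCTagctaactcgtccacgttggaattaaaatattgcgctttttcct
PRR5: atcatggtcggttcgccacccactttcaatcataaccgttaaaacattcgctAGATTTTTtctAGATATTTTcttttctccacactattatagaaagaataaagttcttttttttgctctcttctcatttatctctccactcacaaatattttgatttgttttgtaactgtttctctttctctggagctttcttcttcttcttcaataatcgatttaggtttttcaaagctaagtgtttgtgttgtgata
TOC1: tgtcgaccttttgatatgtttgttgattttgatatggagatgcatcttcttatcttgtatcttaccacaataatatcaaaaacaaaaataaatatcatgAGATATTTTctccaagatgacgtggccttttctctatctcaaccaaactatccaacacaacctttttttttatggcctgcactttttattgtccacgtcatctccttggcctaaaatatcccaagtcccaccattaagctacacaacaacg

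Motifs were searched on both strands from 250 bases before to 50 bases after the gene start, in the 10 clock genes and in 27443 gene promoters of the reference. The G-box was in 5 of the 10 clock genes (CCA1, LHY, PRR9, PRR7 and LUX) and in 7.68% of all promoters. Its first base lay 193 bases before the start in CCA1 and in LUX, 80 in LHY and 201 in PRR7, while PRR9 had a copy at 244 and another at 172. The evening element AAAATATCT, the site through which CCA1 and LHY act on evening genes, was in 4 of 10 (PRR9, PRR5, TOC1 and LUX) and in 2.82% of all promoters. The CCA1-binding site AAAAATCT was in PRR5 and in 7.88% of all promoters, the PBE-box CACATG was in PRR9 and in 12.9%, and GATACG or GATTCG, letters that LUX binds, were in PRR9, ELF3 and ELF4 and in 14.5%. None of the searched motifs overlaps another in these windows, and GI had none of them there. These are matches of letters in a short window and were not tested against the expression values.

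The 30 libraries held 18971915 to 70809112 counts. The PIF3 and PIF5 transcripts were called lower than in WT in each of the 5 mutants named for PIF3 and each of the 5 named for PIF5. PIF1 was called lower in pif1, pif135 and pifq (log2 fold changes -3.95, -2.15 and -2.72) and was near the threshold in pif145 (-1.71, edgeR adjusted p = 0.052, and 0.0046 with the replicate letter as a block, DESeq2 0.018), and the pif135 call did not hold when WT C (-1.97), pif135 B (-1.79) or pif135 C (-1.82) was left out. The PIF1 transcript in the libraries labelled pif134 averaged 63.1 CPM, against 25.0 CPM in WT (log2 fold change 1.33, edgeR adjusted p = 0.11, and 0.022 with the block), while PIF3 was lower (-3.75). Their PIF1 transcript thus goes against the label, though a transcript level alone does not settle whether the factor is lost. Below, pif134 means the libraries labelled so. The PIF4 transcript was not lower in any pif4-bearing mutant, with 18.8 CPM in pif4 and 11.7 CPM in WT, and so does not check that mutation. PIF4 was called higher in pif1 (1.36), pif345 (2.23), pif145 (1.83), pif135 (2.41), pif134 (3.64) and pifq (1.98). The pif1 call was lost without pif1 A, pif1 B or any 1 WT library (1.20 to 1.45). PIF5 was called higher in pif134 (1.45), but not without WT C (1.43) or pif134 B (1.23). Markers of other tissues and states moved with the genotypes as well. The summed level of 6 seed maturation genes was 53.7 to 73.0 CPM in pif1, 13.5 to 333 CPM in pif145, pif135 and pif134, and 141 to 729 CPM in pifq, against 2381 to 4350 CPM in WT, and 4 of the 6 were called lower in each of these mutants. In pif345 it was 2112 to 3827 CPM, with none called lower, and 1 of the 6 was called higher in pif345 and in pif145. On this sum pif134 (13.5 to 283 CPM) stood with the mutants named for PIF1 and apart from pif345, which keeps it. What this means for the pif134 label was not tested. The summed level of 3 light-harvesting antenna genes was 3416 to 7476 CPM in pif1, 3953 to 13672 CPM in the triple mutants and 10702 to 16016 CPM in pifq, against 614 to 924 CPM in WT, and all 3 were called higher in each. The summed level of 4 root hair genes was 7.21 to 9.44 CPM in pif1, 2.01 to 13.05 CPM in pif345, pif145 and pif135, 0.32 to 0.80 CPM in pif134 and 0.84 to 6.23 CPM in pifq, against 15.3 to 23.8 CPM in WT. Of these 4 genes 1 was called lower in each of pif1 and pif135, 3 in each of pif345, pif145 and pifq, and 4 in pif134. Of 4 tested stomatal lineage genes 1 was called higher in pif145, 3 in pif135 and 2 in pifq, TMM and BASL among those of pif135 and pifq, and none of 2 phloem genes was called in any mutant. Over all loci tested, 3.76% were called in pif1, 3.9% in pif345, and 12.1% to 16.9% in pif145, pif135, pif134 and pifq. The part of these shifts in the clock results was not tested, and in whole seedlings fewer cells of a type and less RNA per cell cannot be told apart.

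Of the 10 clock genes, 5 were called in pif1 (4 higher, 1 lower), 0 in pif3, pif4 and pif5, 1 in pif345, 4 in pif145, 4 in pif135, 3 in the libraries labelled pif134 and 3 in pifq. A call is an adjusted p under 0.05 in the quasi-likelihood test of edgeR, adjusted over all loci by the method of Benjamini and Hochberg. Over all loci tested the same call was made for 3.76% in pif1 (1.78% higher and 1.99% lower), 0.112% in pif3, 0.0589% in pif4, 0.128% in pif5, 3.9% in pif345, 12.1% in pif145, 12.6% in pif135, 16.9% in pif134 and 15.2% in pifq. The median log2 fold change of the 10 genes was 0.73 in pif1 and 0.33 in pifq, beside 0.04 and -0.01 over all loci tested. Every one of these comparisons uses the same 3 WT libraries, so the values for different mutants are given side by side and are not independent of each other. With libraries scaled by total counts alone, pif1 had 2 called higher and 1 lower, and PRR7 and ELF3 were no longer called. The share of all loci at that scaling is not given. At an unadjusted p under 0.05 the counts were 1 in pif3, 0 in pif4 and 4 in pif5, and DESeq2 called none in these 3 mutants. The share of all loci at that unadjusted cut is not given, and the shares above are not a background for it. The genes that moved were chiefly CCA1 and LHY, with PRR7, PRR5, ELF3 and LUX in part of the mutants, while PRR9, TOC1, ELF4 and GI were called in none. With the replicate letter as a block within each of 2 sets of genotypes, WT with the single mutants and pifq with the triple mutants, the same 5 genes were called in pif1, where 19.6% of all loci were. The calls were 3 in pif5, 5 in pif345, 5 in pif145, 7 in pif135, 4 in pif134 and 4 in pifq, where 7.29%, 16.5%, 29.6%, 29.3%, 32.5% and 32.4% of all loci were called. ELF4 and GI were then called lower in pif135.

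**Figure D1:**
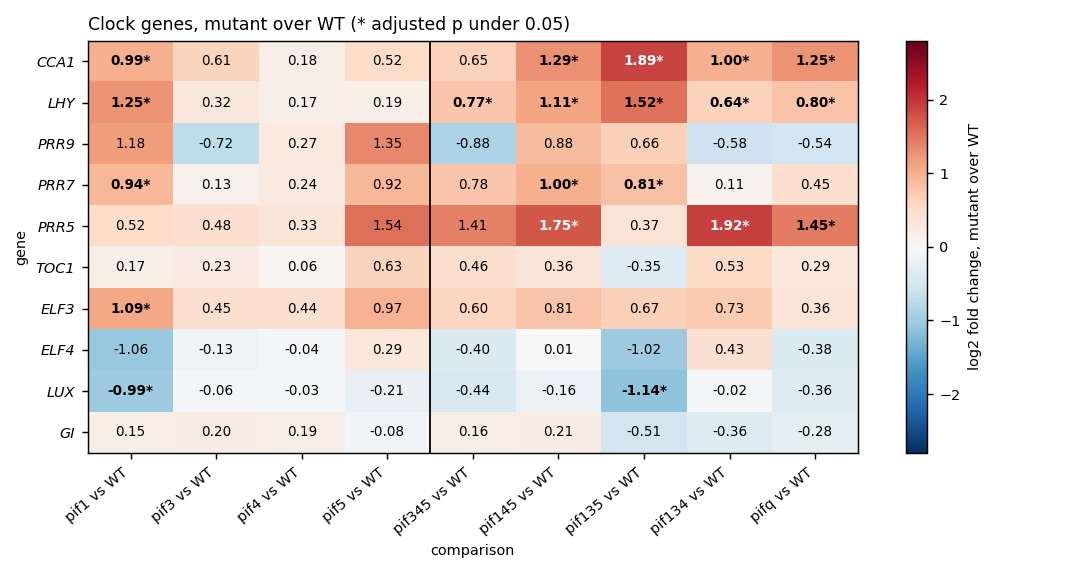
Log2 fold change of each clock gene (rows) in each mutant over WT (columns), with an asterisk and bold type where the edgeR adjusted p was under 0.05. CCA1 and LHY are positive in all 9 mutants, with values from 0.18 and 0.17 in pif4 to 1.89 and 1.52 in pif135, and LUX is marked as lower in pif1 and pif135.

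CCA1, a dawn repressor and one of the pair at the centre of the clock, was higher in pif1, pif145, pif135, pif134 and pifq. It had 62.0, 45.2 and 45.9 CPM in pif1 replicates A, B and C, and 46.1, 78.5 and 59.3 CPM in pifq, against 28.0, 24.5 and 24.6 CPM in WT. All libraries of both mutants lay above all WT libraries, and the pifq values were spread more widely than those of WT. In the triple mutants CCA1 had 43.1, 40.8 and 37.1 CPM in pif345 and 55.2, 84.9 and 48.3 CPM in pif145. It had 77.2, 118.9 and 90.0 CPM in pif135 and 51.3, 55.8 and 46.6 CPM in the libraries labelled pif134. Each of these 12 libraries was above the WT range, and pif135 had the highest mean of the 10 genotypes, 95.4 ± 21.4 CPM (SD, n = 3), against 25.7 ± 1.95 CPM in WT. The log2 fold changes over WT were 0.99 ± 0.23 (SE of the fit) in pif1 (edgeR adjusted p = 0.015), 1.29 ± 0.24 in pif145 (0.00058), 1.89 ± 0.24 in pif135 (4.2e-06), 1.00 ± 0.23 in pif134 (0.0031) and 1.25 ± 0.24 in pifq (0.00042). In pif345 the value was 0.65 ± 0.23 and was not called (edgeR adjusted p = 0.12), and with the replicate letter as a block it was 0.66 ± 0.17 and was called (0.011). The pif1 call was lost without WT A, WT B, WT C or pif1 A, where the log2 fold change was 1.03, 0.93, 0.93 and 0.80, and the calls in pif145, pif135, pif134 and pifq held without each single library.

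CCA1 in the other single mutants was closer to WT. It had 45.2, 30.04 and 42.7 CPM in pif3, 28.4, 31.3 and 27.6 CPM in pif4, and 42.4, 37.0 and 31.0 CPM in pif5. The pif3 and pif5 libraries were all above the WT range, while pif4 overlapped it. Log2 fold changes were 0.61 in pif3 (95% interval 0.13 to 1.09), 0.18 in pif4 (-0.30 to 0.66) and 0.52 in pif5 (0.04 to 1.00), and none was called. In the order of mean levels over the 10 genotypes, from pif135 at the top through pif145, pifq, pif134, pif1, pif345, pif3, pif5 and pif4 to WT at the bottom, the ranges of each genotype and the next overlapped except between pif1 and pif345.

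LHY, the partner of CCA1 with a like binding domain, was higher than in WT in 6 of 9 mutants. It had 137.0, 146.7 and 120.1 CPM in pif1 and 85.8, 95.5 and 112.9 CPM in pifq, against 62.7, 63.4 and 43.2 CPM in WT. The pif1 libraries thus lay above the pifq libraries as well as above WT. In the triple mutants it had 104.3, 87.0 and 96.8 CPM in pif345 and 147.2, 103.8 and 113.8 CPM in pif145. It had 172.6, 137.2 and 174.1 CPM in pif135 and 88.9, 74.0 and 100.2 CPM in the libraries labelled pif134. All 12 triple-mutant libraries were above WT, and pif135 again had the highest mean, 161 ± 20.9 CPM (SD, n = 3), against 56.4 ± 11.5 CPM in WT. The log2 fold change was 1.25 ± 0.22 in pif1 (edgeR adjusted p = 0.00075), 1.11 ± 0.22 in pif145 (0.0011) and 1.52 ± 0.22 in pif135 (2.3e-05). It was 0.77 ± 0.21 in pif345 (edgeR adjusted p = 0.039), 0.64 ± 0.21 in pif134 (0.039) and 0.80 ± 0.21 in pifq (0.011). The first 3 calls held without each single library. The pif345 call was lost without WT A (0.88), WT C (0.62), pif345 A (0.71), B (0.83) or C (0.78), the pif134 call without WT C (0.48), pif134 A (0.65) or C (0.53), and the pifq call without WT C (0.63) or pifq C (0.67). In pif3, pif4 and pif5 LHY averaged 70.2, 63.5 and 64.6 CPM, with log2 fold changes of 0.32, 0.17 and 0.19 that were not called.

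**Figure D2:**
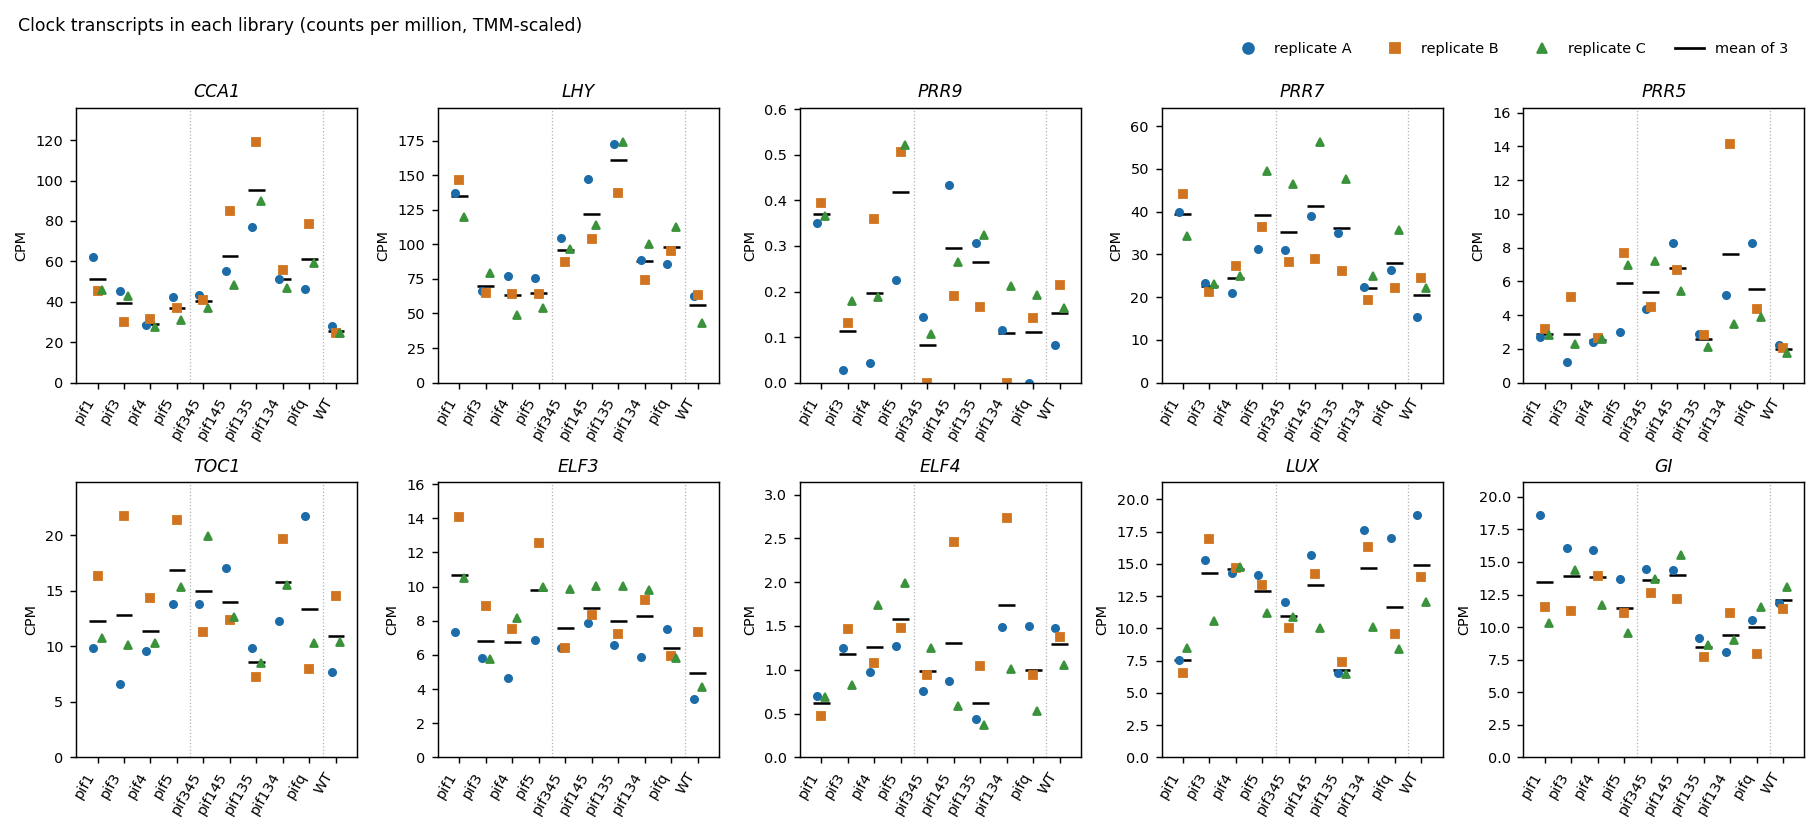
Level of each of the 10 clock genes in each library, in CPM on linear axes starting at 0, with replicates A, B and C as circles, squares and triangles and the mean of the 3 as a bar. Dotted lines separate the single mutants, the triple mutants with pifq, and WT, and CCA1 and LHY stand highest in pif135, where they averaged 95.4 and 161 CPM.

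Libraries with the same letter deviated together within WT and the single mutants, and again within the triple mutants and pifq. Between these 2 sets of 5 genotypes all 3 letters did so in 1 of 25 pairs of genotypes (each correlation over 0.1). In further pairs between the sets some letters did so and others did not, as in WT and pif345 (0.41 for A, -0.31 for B). In pif4 and pif145 letters A and C did so (0.45 and 0.29), and in pif3 and pif134 letters A and B (0.34 and 0.31). The labels name no batch. A difference between a triple mutant or pifq and WT therefore cannot be told apart from a difference between the sets, while pif1, pif3, pif4 and pif5 against WT, and pifq against a triple mutant, are comparisons within a set. Within WT and the single mutants, a test of any difference among the 5 genotypes called CCA1, LHY and PRR7 (3 of 10 clock genes, 4.48% of all loci), with edgeR adjusted p of 0.047, 0.00078 and 0.038. Within the triple mutants and pifq it called CCA1, LHY and LUX (3 of 10, 8.73% of all loci), with edgeR adjusted p of 0.0058, 0.025 and 0.04.

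The morning-expressed PRR9 and PRR7 repress CCA1 and LHY as the day goes on. PRR7 had 39.9, 44.2 and 34.4 CPM in pif1, 38.9, 28.9 and 56.4 CPM in pif145 and 35.0, 26.2 and 47.5 CPM in pif135, against 15.4, 24.4 and 22.0 CPM in WT. All 9 mutant libraries were above WT, and the triple-mutant values were widely spread. The log2 fold changes were 0.94 ± 0.27 in pif1 (edgeR adjusted p = 0.045), 1.00 ± 0.27 in pif145 (0.013) and 0.81 ± 0.27 in pif135 (0.043). These calls were near the threshold. The pif1 call was lost without WT A (0.74), WT C (0.95), pif1 A (0.90), B (0.85) or C (0.99), the pif145 call without WT A (0.82) or pif145 C (0.72), and the pif135 call without pif135 A (0.83) or C (0.53) or without WT A (0.62) or C (0.83). In pif5 PRR7 had 31.4, 36.5 and 49.6 CPM, all above WT, and a log2 fold change of 0.92 ± 0.27 that was not called (edgeR adjusted p = 0.15). Blocked by replicate letter, the pif5 value was 0.93 ± 0.16 and was called (edgeR adjusted p = 0.0042), beside 7.29% of all loci in that fit. The same block gave calls for PRR7 in pif345 (0.76, edgeR adjusted p = 0.0035) and pifq (0.43, 0.047). PRR9 was close to the limit of detection, with 0 to 16 counts in a library (median 5), and at this depth its differences from WT were not detectable. Its log2 fold change in pif1 was 1.18 ± 0.72, from 9, 11 and 10 counts in pif1 and 2, 10 and 5 counts in WT.

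PRR5, the next regulator in the daily order, was higher in pif145, pif134 and pifq. It had 8.25, 6.68 and 5.40 CPM in pif145, 5.22, 14.2 and 3.49 CPM in the libraries labelled pif134, and 8.28, 4.39 and 3.91 CPM in pifq, against 2.22, 2.08 and 1.77 CPM in WT. All 9 libraries were above WT, and a single library, B in pif134 and A in pifq, was well above the other 2 of its genotype. The log2 fold changes were 1.75 ± 0.46 in pif145 (edgeR adjusted p = 0.012), 1.92 ± 0.46 in pif134 (0.0035) and 1.45 ± 0.45 in pifq (0.029). Without pif134 B the pif134 value was 1.11 and was not called, and the pif145 call was lost without WT C (1.65). The pifq call was lost without WT A (1.52), WT B (1.47), WT C (1.36) or pifq A (1.03). PRR5 was not called in pif1 or pif135, where CCA1 and LHY were. In pif1 it had 2.72, 3.16 and 2.81 CPM and in pif135 2.89, 2.85 and 2.104 CPM, with log2 fold changes of 0.52 (95% interval -0.41 to 1.45) and 0.37 (-0.56 to 1.30). In pif5, with 3.00, 7.70 and 6.95 CPM, the value was 1.54 ± 0.45 without a call (edgeR adjusted p = 0.16) and 1.47 ± 0.42 with one when the replicate letter was a block (0.036). The block also gave a call in pif345 (1.46 ± 0.42, edgeR adjusted p = 0.021).

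TOC1, the evening regulator whose protein binds the CCA1 and LHY genes, was not called in any mutant. It had 9.86, 16.3 and 10.7 CPM in pif1 and 21.7, 7.98 and 10.3 CPM in pifq, against 7.68, 14.6 and 10.4 CPM in WT. The 3 genotypes overlapped, and the values within pifq were spread more widely than those of pif1 and WT together. Log2 fold changes over WT ran from -0.35 in pif135 to 0.63 in pif5, with 95% intervals of -0.58 to 0.92 in pif1 and -0.46 to 1.04 in pifq, so changes of up to about that size were not detectable with 3 replicates.

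In the evening complex, LUX fell in pif1 and pif135 and ELF3 rose in pif1. LUX, the DNA-binding member, had 7.57, 6.53 and 8.51 CPM in pif1 and 6.51, 7.37 and 6.47 CPM in pif135, against 18.8, 14.02 and 12.02 CPM in WT. Both mutants lay wholly below WT. The log2 fold change was -0.99 ± 0.26 in pif1 (edgeR adjusted p = 0.029) and -1.14 ± 0.26 in pif135 (0.0041). The pif1 call was lost without WT A (-0.81), pif1 A (-1.01), pif1 B (-0.88) or pif1 C (-1.11), and the pif135 call held without each single library. In the other 7 mutants the log2 fold change of LUX lay between -0.44 in pif345 and -0.02 in pif134, and none was called. pifq is among these, with 17.0, 9.58 and 8.39 CPM, a range that overlaps WT. In the order of mean LUX levels the 8 genotypes from WT down to pif345 overlapped from one to the next, and pif1 and pif135 stood below pif345 without overlap.

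ELF3, the scaffold of the complex, had 7.34, 14.1 and 10.5 CPM in pif1, against 3.41, 7.34 and 4.14 CPM in WT. The lowest pif1 library was level with the highest WT library, but each pif1 library was above the WT library of its letter. The log2 fold change was 1.09 ± 0.31 (edgeR adjusted p = 0.047), and it was lost without WT A (0.86), WT C (0.93), pif1 B (0.84) or pif1 C (1.06). In the remaining mutants ELF3 values were all positive, from 0.36 in pifq to 0.97 in pif5, with no call. Without WT B, the highest WT library, ELF3 was called in pif145 (1.20), pif135 (1.04) and pif134 (1.13). Blocked by replicate letter, the pif5 value was 1.00 ± 0.20 and was called (edgeR adjusted p = 0.008). So were those of pif345 (0.64, edgeR adjusted p = 0.032), pif145 (0.87, 0.0025), pif135 (0.72, 0.0092) and pif134 (0.79, 0.0049), while those of pif3, pif4 and pifq were not. ELF4, the small partner of ELF3, had 9 to 91 counts a library and was called in none of the mutants without the block. It had 0.70, 0.47 and 0.69 CPM in pif1 and 0.44, 1.05 and 0.36 CPM in pif135, against 1.48, 1.37 and 1.05 CPM in WT. Both mutants lay below WT, in pif135 by a small margin at replicate B, and the log2 fold changes of -1.06 ± 0.49 and -1.02 ± 0.48 were not called (edgeR adjusted p = 0.22 and 0.17). With the block pif135 was at -1.16 ± 0.42 and was called (edgeR adjusted p = 0.041), and pif1 was not (0.075).

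GI was not called in any mutant without the block. It had 18.6, 11.5 and 10.3 CPM in pif1, 9.14, 7.68 and 8.66 CPM in pif135 and 10.6, 7.93 and 11.5 CPM in pifq, against 11.9, 11.4 and 13.1 CPM in WT. The pif135 libraries were all below WT, with a log2 fold change of -0.51 ± 0.23 (edgeR adjusted p = 0.14) and of -0.53 ± 0.18 with the block, where it was called (0.029), and those of pif1 and pifq overlapped it. Counting only genes whose 3 mutant libraries all lay beyond all 3 WT libraries, pif1 had 5 clock genes above and 2 below WT, where 14.2% and 12.3% of all loci did so. PRR9, close to the limit of detection, is among the 5 above, and ELF3, which was called, is not. The counts were 3 above and 3 below in pif135 (16.2% and 15% of loci), 5 above and none below in pif145 (13.7% and 13%), and 3 above and none below in pifq (16.4% and 16.3%). In pif345 they were 4 above and none below (14% and 14.1%) and in pif134 3 above and 1 below (14.7% and 14.9%). In pif5 they were 4 above, PRR9 again among them, and 0 below (8.65% and 9.11%). In pif3 they were 2 and 0 (4.23% and 4.18%) and in pif4 1 and 0 (4.38% and 4.49%).

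By name, pifq differs from each triple mutant by the loss of the remaining factor. For the libraries labelled pif134 the PIF1 transcript differed as well. It averaged 3.79 CPM in pifq, against 63.1 CPM in pif134 (log2 fold change -4.06, edgeR adjusted p = 0.00038), beside the difference in PIF5 (-5.37), so that contrast may not be of PIF5 alone. None of the 10 clock genes was called in pifq against pif345, pif145, pif135 or pif134, where 2.75%, 0.551%, 0.696% and 1.35% of all loci were. At an unadjusted p under 0.05 there were 1, 2, 4 and 0 clock genes, and DESeq2 called 0, 0, 1 and 0. The shares of all loci for these counts are not given. CCA1 averaged 61.3 ± 16.3 CPM in pifq, against 40.3 ± 3.02 CPM in pif345 (SD, n = 3 each), and all pifq libraries were above those of pif345. The log2 fold change was 0.60 ± 0.23 (edgeR adjusted p = 0.21), and 0.57 ± 0.17 with the replicate letter as a block, where it was called (0.036), beside 10.4% of loci. Against pif135, the pifq means of CCA1 and LHY were lower. LHY averaged 98.1 ± 13.7 CPM in pifq, against 161 ± 20.9 CPM in pif135 (SD, n = 3 each), and the 2 genotypes did not overlap. With the block the log2 fold changes of pifq over pif135 were -0.64 ± 0.17 for CCA1, -0.71 ± 0.17 for LHY and 0.72 ± 0.21 for LUX, all called beside 6.49% of loci (edgeR adjusted p = 0.029, 0.015 and 0.04), and without it -0.64 ± 0.23, -0.72 ± 0.21 and 0.78 ± 0.26, none called (0.2, 0.12 and 0.16).

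The loss of PIF1 can be read in WT, as pif1 over WT, and in a plant that already lacks PIF3, PIF4 and PIF5, as pifq over pif345. LHY rose by 1.25 ± 0.22 (log2) in pif1 over WT, and was at 0.03 ± 0.21 in pifq over pif345. The same pairs of values were 0.94 ± 0.27 and -0.33 ± 0.26 for PRR7, 1.09 ± 0.31 and -0.23 ± 0.31 for ELF3, and -0.99 ± 0.26 and 0.09 ± 0.26 for LUX. For CCA1 they were 0.99 ± 0.23 and 0.60 ± 0.23, both positive. The difference between the 2 effects was 1.22 ± 0.30 for LHY (edgeR adjusted p = 0.056), 1.27 ± 0.37 for PRR7 (0.11), 1.33 ± 0.44 for ELF3 (0.15), -1.07 ± 0.36 for LUX (0.16) and 0.39 ± 0.33 for CCA1 (0.6). None of the 10 was called, beside 0.653% of all loci. At an unadjusted p under 0.05 there were 4, and DESeq2 called 2, where the shares of all loci are not given. Since same-lettered libraries deviated together within sets, the replicate letter was also used as a block within sets, and LHY, PRR7, ELF3 and LUX were then called, beside 13.4% of all loci (edgeR adjusted p = 0.002, 0.0013, 0.0048 and 0.025). For PIF3, PIF4 and PIF5 the same difference between backgrounds called none of the 10 clock genes, beside 0.219%, 0.525% and 1.32% of loci. At an unadjusted p under 0.05 there were 2, 3 and 2, again with no such share given, and DESeq2 called none. Blocked by replicate letter within sets, CCA1 (0.83) and LHY (0.88) were called for PIF4, beside 7.01% of all loci, and ELF3 (1.33) for PIF5, beside 5.03%, where the PIF5 comparison uses the libraries labelled pif134.

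**Figure D3:**
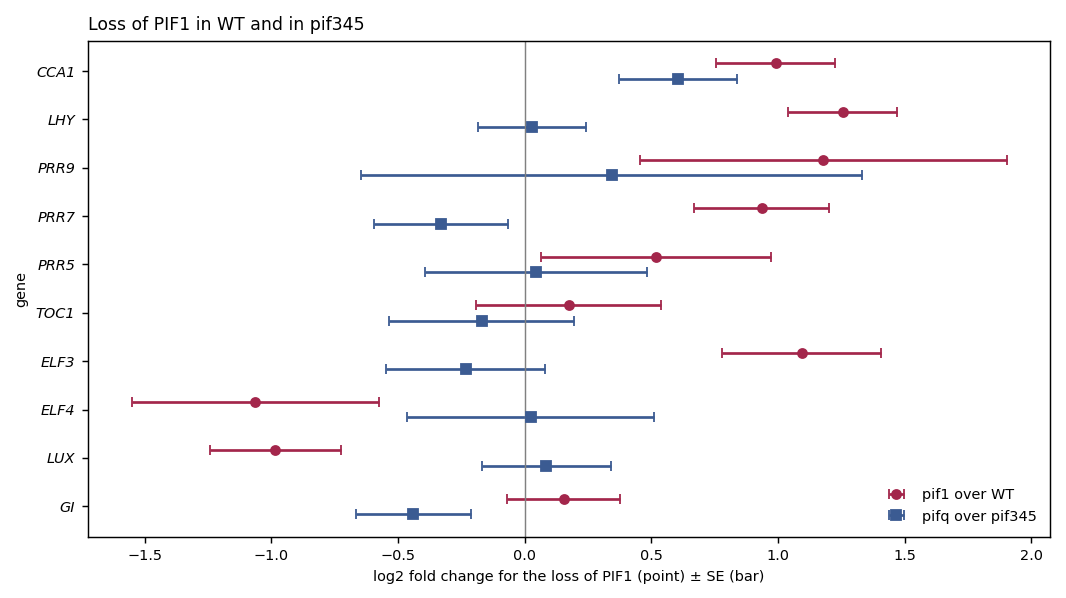
Log2 fold change for the loss of PIF1, as pif1 over WT (circles) and as pifq over pif345 (squares), for each clock gene, with the SE of the edgeR fit as bars. For LHY, PRR7, ELF3 and LUX the circles stand away from 0 (1.25, 0.94, 1.09 and -0.99) and the squares near it (0.03, -0.33, -0.23 and 0.09).

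The clock genes also differed between replicate letters. Within WT and the single mutants TOC1, ELF3 and GI differed by letter (3 of 10, beside 41.3% of all loci), with edgeR adjusted p of 0.0034, 0.001 and 0.045. TOC1 averaged 9.53 CPM over the 5 libraries lettered A, 17.7 CPM over those lettered B and 11.4 CPM over those lettered C, and B was the highest and A the lowest in 5 of 5 genotypes. ELF3 averaged 5.62, 10.07 and 7.71 CPM in A, B and C, with B the highest in 4 of 5 genotypes. GI averaged 15.3, 11.9 and 11.8 CPM, with A the highest in 4 of 5. Within the triple mutants and pifq the letter was called for CCA1, PRR7, ELF4 and LUX (4 of 10, beside 44.1% of all loci), with edgeR adjusted p of 0.017, 0.00037, 0.029 and 0.029. PRR7 averaged 30.7, 25.0 and 42.3 CPM in A, B and C, and C was the highest and B the lowest in 5 of 5 genotypes. CCA1 was the highest in B in 4 of 5, with 54.6, 75.8 and 56.3 CPM. The share of clock genes that differed by letter was close to that of all loci, and the letters of the 2 sets did not show the same pattern.

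**Figure D4:**
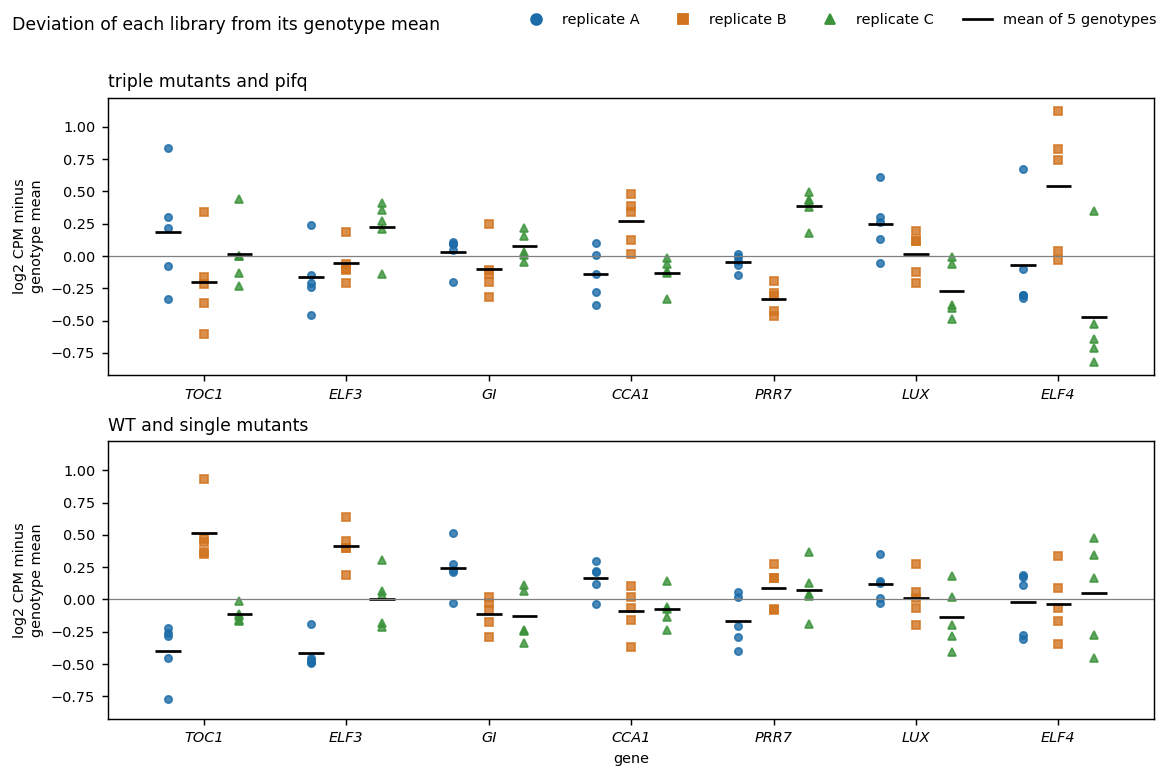
Deviation of each library from the mean of its genotype in log2 CPM, for the 7 clock genes in which the replicate letter was called in either set, with replicates A, B and C as circles, squares and triangles and the mean of 5 genotypes as a bar. In the lower panel all 5 squares of TOC1 are above 0 and all 5 circles below, and in the upper panel all 5 triangles of PRR7 are above 0 and all 5 squares below.

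Around the 10 core genes, 45 further clock genes in 5 lists were counted, and 42 of them had enough reads. In pif1 4 were called higher and none lower, where 3.76% of all loci were called. In pifq 8 were called higher and 4 lower, where 15.2% of all loci were called. In pif345, pif145, pif135 and pif134 the counts were 1, 9, 7 and 7 higher and 0, 0, 3 and 1 lower. There 3.9%, 12.1%, 12.6% and 16.9% of all loci were called. The REVEILLE (RVE) and LNK genes, which encode MYB factors related to CCA1 and the co-activators they recruit to evening genes, held all 4 of the calls in pif1. Of the 12 genes of that list 11 were tested, and 4 were higher and none lower in pif1, with a median log2 fold change of 0.83 beside 0.04 over all loci tested. In pifq 4 were higher and none lower, with a median of 0.48 beside -0.01. LNK3 averaged 31.8 ± 4.27 CPM in pif1 and 34.6 ± 1.61 CPM in pifq, against 12.6 ± 3.18 CPM in WT (SD, n = 3 each). The lowest library of either mutant, 29.0 CPM, was above the highest of WT, 15.0 CPM, and the log2 fold changes were 1.33 ± 0.23 and 1.45 ± 0.23. LNK3 was called in pif1, pif345, pif145, pif135, pif134 and pifq. LNK2 averaged 53.8 ± 25.7 CPM in pif1 and 38.9 ± 16.2 CPM in pifq, against 15.7 ± 6.23 CPM in WT, with log2 fold changes of 1.77 ± 0.42 and 1.31 ± 0.41. RVE8, an activator of the evening genes PRR5 and TOC1, averaged 17.2 ± 2.28 CPM in pif1, against 7.71 ± 1.16 CPM in WT (log2 fold change 1.15 ± 0.25), and RVE4, its near relative, 311 ± 38.5 CPM in pif1, against 161 ± 12.9 CPM in WT (0.95 ± 0.22). In pifq RVE4 was called (0.67 ± 0.22) and RVE8 was not. LNK4 was called in pifq (0.81 ± 0.25), with 119 ± 15.7 CPM, against 67.7 ± 6.42 CPM in WT. In pif135 6 genes of the list were called, LNK2 at 2.75 ± 0.43, where 12.6% of all loci were called. RVE1, named after its values were seen, was called in pif145, pif135 and pif134 (1.56, 1.65 and 1.28). It was not called in pif1, and in pifq it was not called in the edgeR fit without the block but was with it (0.94, edgeR adjusted p = 0.0013) and by DESeq2 (0.95, adjusted p = 0.033). Without 1 library the pif1 calls of LNK2 (WT A 1.67, WT C 1.52, pif1 B 1.41), RVE8 (WT C 1.01, pif1 B 1.05) and RVE4 (WT C 0.85, pif1 B 0.89, pif1 C 0.88) were lost, and that of LNK3 held. In pifq the LNK3 call held, those of LNK2 (WT A 1.22, WT C 1.08, pifq C 0.90) and LNK4 (WT A 0.75, WT C 0.77, pifq B 0.69) were lost, and that of RVE4 was lost without any 1 of the 6 libraries (0.60 to 0.71). The pif345 call of LNK3 was lost without WT C (0.73), pif345 A (0.92), B (0.98) or C (0.87), and the RVE1 call in pif134 without pif134 B (1.04). Under scaling by total counts alone, 1 gene of the list was called in pifq, and the share of all loci at that scaling is not given. Blocking by replicate letter, 7 genes of the list were called in pif1, with LNK4 at 0.83 (edgeR adjusted p = 0.002), beside 19.6% of all loci.

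**Figure D5:**
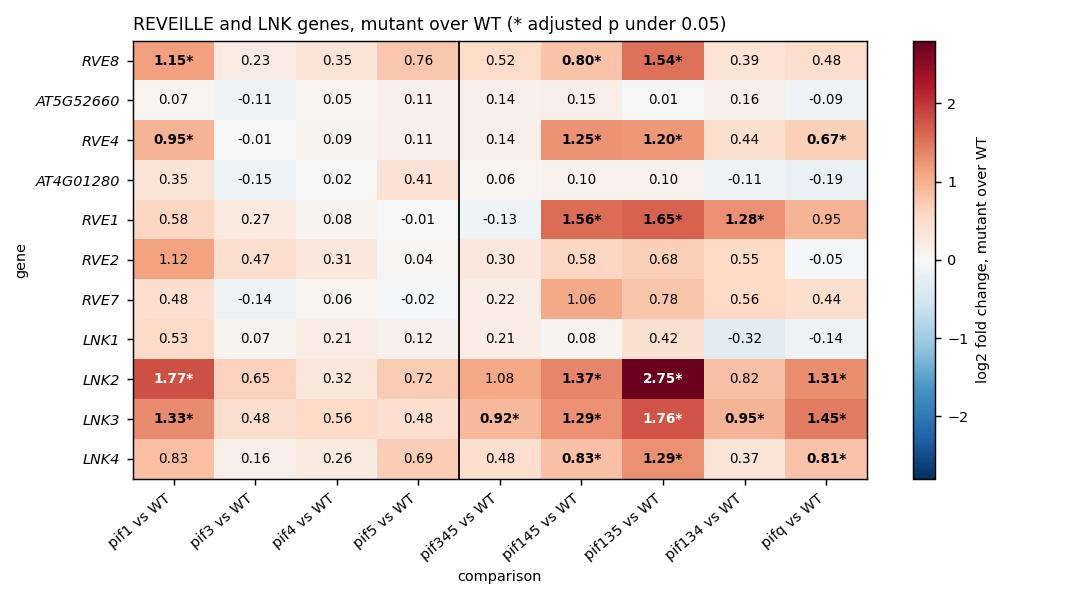
Log2 fold change of the 11 tested REVEILLE and LNK genes (rows) in each mutant over WT (columns), with an asterisk and bold type where the edgeR adjusted p was under 0.05. LNK3 is marked in 6 of the 9 mutants, with values from 0.92 in pif345 to 1.76 in pif135, and AT5G52660 and AT4G01280 are marked in none.

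In the other 4 lists edgeR and DESeq2 called 0 genes in pif1, where 2 relatives, 0 F-box genes, 1 other regulator and 2 output genes had an unadjusted p under 0.05. The share of all loci at that unadjusted cut is not given. Blocking by replicate letter, BOA (-0.66, edgeR adjusted p = 0.0088), COR28 (-1.80, 0.023) and CDF3 (0.67, 0.021) were called in pif1, beside 19.6% of all loci. Calls were made in pifq. Of the 6 relatives of PRR, ELF4 and LUX genes, ELF4-L1 was higher in pifq (1.36 ± 0.43) and BOA, a close homologue of LUX, lower (-1.56 ± 0.32). With the block these calls were not confined to pifq. ELF4-L1 was also called higher in pif134 (2.09), and BOA lower in pif345, pif145 and pif135 (-0.62, -0.83 and -1.23). BOA averaged 15.4 ± 5.22 CPM in pifq, against 45.4 ± 15.7 CPM in WT (SD, n = 3 each). None of the F-box photoreceptors ZTL, FKF1 and LKP2 was called in any mutant against WT without the block, and with it ZTL was called in pif134 (0.43, edgeR adjusted p = 0.02), beside 32.5% of all loci. COR28 and ZTL were named after their values were seen. Of 14 other clock regulators 2 were called in pifq, a share close to the 15.2% of all loci. LWD1, a WD-repeat protein that works with TCP factors on CCA1, was higher (1.00 ± 0.25) and JMJD5, which encodes a jumonji-domain protein, lower (-1.19 ± 0.30). With the block LWD1 was also called higher in pif145, pif135 and pif134 (0.99, 0.59 and 1.09), and JMJD5 lower in pif135 (-0.73). LWD1 averaged 95.5 ± 21.9 CPM in pifq, against 47.7 ± 2.82 CPM in WT, and JMJD5 17.5 ± 7.57 CPM in pifq, against 39.95 ± 6.78 CPM in WT. Of 10 output genes 8 were tested. CDF2 and CDF3, DOF factors that repress flowering, were higher in pifq (0.98 ± 0.32 and 0.77 ± 0.26), and AT1G69570 and the RNA-binding protein gene GRP7 lower (-0.85 ± 0.23 and -0.87 ± 0.26). The calls of BOA and LWD1 held without each single library. Those lost were JMJD5 without pifq B (-0.96), ELF4-L1 without WT B (1.25), WT C (1.08) or pifq A (1.04), and AT1G69570 without WT A (-0.66) or pifq A (-0.70). GRP7 was lost without WT B (-0.76), pifq B (-0.71) or pifq C (-0.73), CDF2 without any 1 WT library or pifq B (0.75 to 1.00), and CDF3 without any 1 WT library, pifq B or pifq C (0.58 to 0.89).

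Among themselves the clock genes varied in part together over the 10 genotype means, which share libraries and depth with every other value given here. The Pearson correlation of mean log2 CPM was 0.91 between CCA1 and LHY and 0.92 between ELF4 and LUX. It was -0.84 between LHY and LUX and -0.81 between LHY and ELF4. PRR5 and TOC1 were at 0.80, and GI ranged from -0.59 with CCA1 to 0.37 with LUX. Over all loci tested, the 3 loci most like LHY were AT3G13040 (r = 0.988), AT1G49010 (0.987) and BBX27 (0.983), and the 3 most like CCA1 were AT1G66760 (0.977), AT5G08720 (0.973) and AT2G39000 (0.972). For PRR7 they were AT1G09910, AT5G08430 and AT1G13570 (0.979 to 0.959), for PRR5 AT2G13840, LIS and AT3G07500 (0.967 to 0.958), and for ELF3 SKIP16, SINAT2 and AT5G11600 (0.949 to 0.920). For LUX they were AT1G19370, AT3G07640 and AT1G10990 (0.946 to 0.945), and for ELF4 AT1G10990, SAM-2 and CSLA02 (0.967 to 0.965), with AT1G10990 named for both. The likenesses of TOC1 (AT4G38410, AT3G60520 and BGLU28, 0.920 to 0.910), PRR9 (AT5G24680, AT3G61080 and AT2G32795, 0.926 to 0.917) and GI (AT5G37940, AT1G02460 and ELIP1, 0.879 to 0.863) were lower. Over 10 points chosen from 18680 loci such values are a description of these genotypes.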

How the data were processed

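Whole dark-grown seedlings of 10 genotypes were profiled by strand-aware 3′-end mRNA sequencing, 3 biological replicates each, per the labels' protocols. The deposited values are whole-number counts per TAIR10 locus made by the authors, with 1 column per replicate. In 3 columns (WT B, pif3 B and pif5 C) the deposited values are expected counts only in an unnamed last row, which was left out (at most 0.0015% of a library), and 100% of named values were whole, so none was rounded. Bowtie 0.12.7, edgeR and build TAIR10 are named in the submitters' processing notes, while how reads were assigned to loci, reads with more than 1 hit included, is not given in the sources used here. The labels mention technical duplicate runs. Replicates of 1 genotype differed by far more than counting noise (chi-square per degree of freedom 28.31 to 205.6).

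All 30 libraries were fitted together by genotype with edgeR 4.0.16 (limma 3.58.1, R 4.3.3): TMM scaling (factors 0.779 to 1.20), filterByExpr with a minimum count of 10, quasi-likelihood tests with 20 residual degrees of freedom, and Benjamini-Hochberg adjustment over 18680 loci, with a threshold of 0.05. CPM are scaled by TMM, log CPM used a prior count of 2, SE is the log2 fold change divided by the square root of F, and intervals are 95%. Fits were tested on simulated data. Alternatives were DESeq2 1.42.0, scaling by total counts, other filters, only the compared groups, a replicate block, and leaving out each library. The replicate block was judged by whether same-lettered libraries deviated together: all 3 correlations were over 0.1 in 19 of 20 pairs of genotypes within a set and in 1 of 25 pairs between sets, where 1 set is WT and the single mutants and the other pifq and the triple mutants. The letters were therefore taken to pair libraries within sets, a pattern in the data that the labels do not state. Some letters also passed in further pairs between sets, so deviation by letter was not confined to the sets. Promoters and gene names came from RefSeq TAIR10.1, which held 32834 of the 33322 loci.

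The 10 genes and the wider lists were chosen with earlier results of these data known. All 10 core genes are named. A wider clock gene is named where it was called in pif1 or pifq against WT, and the 3 loci most like each core gene are those with the highest Pearson correlation over genotype means. The p-values set each difference against the spread between these replicates, which without the block includes the differences between letters.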

Additional observations from a re-analysis of the deposited data

Results flagged for a closer look

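The effect of losing a PIF differed between the 2 backgrounds for 7 pairs of gene and factor when the replicate letter was a block within sets, and for none in the edgeR fit without the block. For PIF1, the effect in pif1 over WT minus that in pifq over pif345 was 1.23 for LHY, 1.28 for PRR7, 1.30 for ELF3 and -1.0 for LUX on the log2 scale (edgeR adjusted p = 0.002, 0.0013, 0.0048 and 0.025), beside 13.4% of all loci. For PIF4, in pif4 over WT minus pifq over pif135, it was 0.83 for CCA1 and 0.88 for LHY (edgeR adjusted p = 0.04 and 0.026), beside 7.01% of all loci. In the same fit pif4 over WT was at 0.19 and 0.17 without a call, and pifq over pif135 at -0.64 and -0.71 with one. For PIF5, in pif5 over WT minus pifq over the libraries labelled pif134, it was 1.33 for ELF3 (edgeR adjusted p = 0.0081), beside 5.03% of all loci. The PIF1 transcript also differed between pifq and those libraries, so that effect may not be of PIF5 alone. These comparisons span both sets of genotypes, but each effect is taken within a set.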

How the results depend on the processing

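Counts of clock genes called (of 10) moved by more than 1.5 times as follows, and the cause was not tested. Scaling by total counts gave 3 in pif1, 2 in pif345 and 1 for the PIF1 difference between backgrounds. It shifted the log2 fold changes over WT of the 10 genes by a median of -0.114 in pif134 to 0.197 in pif5. DESeq2 gave 2 in pif345, 1 for pifq over pif135 and 2 for the PIF1 difference. With no filter there were 3 in pif1 and 0 in pif345, and with a filter of mean 5 CPM 1 for the PIF1 difference. With only the compared groups there were 3 in pif1, 0 among triple mutants and pifq, and 2 for the letter in that set. A replicate block gave 2 in pif5, 3 in pif345, 3 for the PIF1 difference, 5 among WT and single mutants and 5 among triple mutants and pifq. The replicate block within sets gave 3 in pif5, 5 in pif345, 7 in pif135, 1 for pifq over pif345, 3 for pifq over pif135, 5 and 5 among the sets, and 4, 2 and 1 for the PIF1, PIF4 and PIF5 differences. It changed no other count by over 1.5 times. Shares of all loci are not given beside each count in this section, and they moved as well. By the same rule the share of all loci moved in 12 comparisons with DESeq2 and in 9 with only the compared groups. It moved in 17 with the replicate block, in 19 with the block within sets and in 2 with scaling by total counts. With each of the 2 other filters it moved in 1.

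Leaving out 1 library gave 1 to 4 in pif1, 0 to 1 in pif345, 3 to 5 in pif145, 3 to 5 in pif135, 2 to 4 in pif134 and 1 to 3 in pifq. It gave 0 to 1 for the PIF1 and the PIF5 difference, 1 to 3 among each set and 2 to 4 for each letter test. It gave 0 throughout in pif3, pif4, pif5, pifq over each triple mutant, and the PIF3 and PIF4 differences. No called value changed direction under these alternatives. Depth limits PRR9 most, with at most 16 counts in a library and an SE of 0.72 to 0.91 on the log2 fold change over WT, against 0.21 to 0.27 for CCA1, LHY, PRR7, LUX and GI.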
